A study of Mus musculus with 19 samples.

Results

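Type I interferon stimulated genes are the genes that cells switch on when they sense interferon alpha or beta. The 41 genes described here were chosen by name, and all 41 were found among the 27179 genes of the deposited table, where they were matched by Entrez gene ID and named by RefSeq symbol. The table came from RNA sequencing of spleen cells from 19 mice of the FCG model of core genotypes, in which the sex chromosomes and the gonads vary independently. The study asked how each of them bears on the response to immunization with heat-killed Streptococcus pneumoniae (HKSP). Every mouse was immunized intraperitoneally with HKSP, a killed unencapsulated strain, and its spleen was taken 7 days later, dispersed and freed of red cells by lysis before RNA extraction. The mice had C57BL/6J mothers and FCG fathers on that background, and the testis-determining gene Sry was missing from the Y chromosome and was carried, in the males alone, as a transgene on chromosome 3. The groups were XX mice with ovaries (XXF, 5 mice, F1 to F5), XY mice with ovaries (XYF, 4 mice, F6 to F9), XX mice with testes (XXM, 5 mice, numbered 2, 5, 6, 7 and 8) and XY mice with testes (XYM, 5 mice, numbered 9, 12, 13, 15 and 16). "Females" and "males" below stand for mice with ovaries and with testes. The ages of the sequenced mice were not given, and no unimmunized mouse was sequenced, so no value here measures a response to HKSP. The libraries were numbered group by group with no batch or date stated, and any difference in their handling cannot be told apart from the groups.

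As background, type I interferons bind a receptor made of IFNAR1 and IFNAR2 on nearly every nucleated cell, and the kinases JAK1 and TYK2 then pass the signal on. A complex that holds STAT2 and IRF9 binds the interferon-stimulated response element in the promoters of its target genes, whose products sense viral nucleic acids, degrade RNA, block translation or feed back on the pathway. In the spleen, plasmacytoid dendritic cells are known as strong producers of type I interferon, and low tonic interferon keeps many of these genes transcribed in B cells, T cells and myeloid cells without infection.

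Of the 41 genes, 32 had an entry in the RefSeq promoter set (GRCm38.p6), which holds 250 bases before and 50 bases after each start, with 39 promoters between them. The core of the response element, searched as GAAANNGAA on both strands, stood in 22 of the 39 promoters (56.4%), against 8.56% of all 32851 promoters of the same length. The gamma-activated sequence TTCNNNGAA stood in 12.8% of the members' promoters and 8.30% of all promoters. By gene, 20 of 32 held the core, among them 9 of the 13 members with a promoter that passed a test described below and 11 of the other 19. With 1 promoter taken for each of these 20 genes there were 35 cores. Of these, 27 lay wholly before the start and 13 wholly within the last 100 bases before it. The Bst2 promoter held 1 core that overlapped a gamma-activated sequence. The 60-base stretches below, on the strand of each gene, show the cores of the 6 members that were called lower in males over both complements and held a core, with capitals marking the core on either strand. A match is a description only and shows no binding.
Isg15 (chr4:156200851-156200910, minus strand, 33 to 92 bases before the start): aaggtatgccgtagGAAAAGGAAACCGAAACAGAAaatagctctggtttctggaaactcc
Oas1a (chr5:120907526-120907585, minus strand, 1 to 60 bases before the start): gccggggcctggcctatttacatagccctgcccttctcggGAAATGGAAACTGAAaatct
Oas1g (chr5:120887614-120887673, minus strand, 1 to 60 bases before the start): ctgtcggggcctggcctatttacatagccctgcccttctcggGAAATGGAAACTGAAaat
Oas3 (chr5:120777695-120777754, minus strand, 36 to 95 bases before the start): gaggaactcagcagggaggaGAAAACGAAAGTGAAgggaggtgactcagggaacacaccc
Ifit1 (chr19:34640779-34640838, plus strand, 51 to 110 bases before the start): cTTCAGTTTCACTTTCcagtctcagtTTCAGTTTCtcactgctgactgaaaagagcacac
Rsad2 (chr12:26456538-26456597, minus strand, 86 to 145 bases before the start): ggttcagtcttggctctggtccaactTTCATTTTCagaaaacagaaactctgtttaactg
Isg15, Oas1a, Oas1g, Oas3 and Ifit1 held overlapping or closely spaced cores, whereas Rsad2 held 1. Oas1a and Oas1g are neighbouring paralogs whose stretches share the same cores. The promoters of Irf7, Oasl2, Ifit2 and Helz2, which also passed a test, held no core in the window searched, and Oas2 and Rtp4 had no promoter entry.

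**Figure D1:**
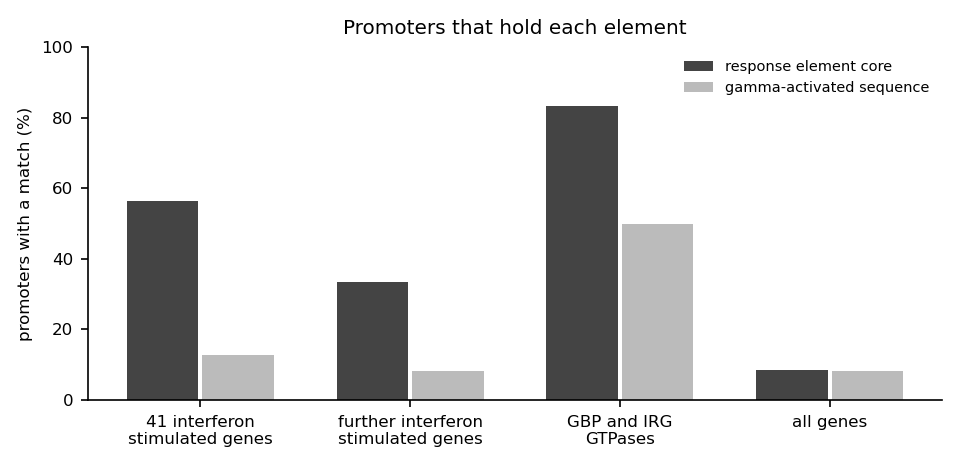
Share of promoters (percent, 300 bases each) that hold the response element core GAAANNGAA on either strand (dark) or the gamma-activated sequence TTCNNNGAA (light) in the 41 interferon stimulated genes, further interferon stimulated genes, the GBP and IRG GTPases and all genes. The core was present in 56.4%, 33.3%, 83.3% and 8.56% of promoters.

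Levels are given as RPKM, reads scaled to transcript length and library size, recovered from the deposited log2(RPKM + 1) values. Sequencing depth ran from 11.3 to 19.96 M reads a mouse (M, 1e6 reads; median 17.4), and was lowest in XYF F6 (11.3) and XXM 2 (12.1). All 41 members passed the filter for testing, which asked that 4 or more mice reach an RPKM of 0.5 and which 14186 genes passed. On the per-length RPKM scale the median member had a mean level of 20.6, against 9.97 for the median tested gene, and 32 members exceeded 10. The mean RPKM of the members ran from 0.931 for Oas1g to 176 for Sp100, a nuclear body protein. Oas1g had as few as 2 reads in a mouse, and every other member had at least 28 reads in every mouse. The members lie on 15 chromosomes and none lies on the X or Y; 6 each lie on chromosomes 5 and 16. All values are from whole spleen cell suspensions, in which fewer cells of a type and less RNA per cell cannot be told apart.

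Members were lower in males than in females and lower in XX than in XY mice wherever they passed the tests, apart from Samd9l and Helz2. Calls needed a limma p below 0.1 after adjustment over all 14186 genes and a fold change over 1.5, a log2 difference beyond 0.58 on the log2(RPKM + 1) scale, which understates the fold of genes with low RPKM. Differences below are on that scale, each with its standard error (SE), from 5 XXF, 4 XYF, 5 XXM and 5 XYM mice. Single members are described as called or not called by the main fit. Members that gain a call with a mouse left out or in another setting are not named. For males minus females over both complements, 9 of 41 members were called lower, beside 5.36% of all tested genes, and 0 were called higher, beside 1.96%; by limma 3 members (7.32%) were higher at an unadjusted p under 0.05, beside 22.2% of tested genes, and limma-voom called 1. Within XX mice 10 members were called lower, beside 2.91% of tested genes, and 0 higher, beside 1.30%, with 0 higher at an unadjusted p under 0.05 in limma, beside 10.4%, and 0 in limma-voom. Without XXF F1 this count of 10 fell to 5, while the count over all genes went from 598 to 521. Within XY mice 9 members were called lower, beside 8.13% of tested genes, and 2 higher, beside 7.63%, and without XYM 15 the joint count of 11 became 17, while that over all genes went from 2237 to 2702. The 2 called higher became 5 without XYM 9 and 1 without each of XYF F6, XYM 12 and XYM 16. Irf7, Isg15, Oas1a, Oas3, Oasl2, Ifit1 and Rtp4 were lower in males within both complements. These are 7 of the 10 members called lower within XX (70.0%) and 7 of the 9 within XY (77.8%), beside 155 of 413 (37.5%) and of 1154 (13.4%) among all tested genes. Over all 7 comparisons 15 of 41 members (36.6%) were called in at least 1, beside 21.0% of tested genes. The median difference over the 41 members was -0.30 for males minus females, against 0.02 over all tested genes, with -0.32 against -0.01 within XX and -0.26 against 0.02 within XY. The median within XX was -0.20 without XXF F1, and that within XY was -0.14 without XYM 9 and -0.16 after quantile normalization.

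For XX minus XY in females, 2 members were called lower, beside 0.712% of tested genes, and 0 higher, beside 0.670%; limma-voom called 2 lower and 0 higher. At an unadjusted p under 0.05 limma had 13 lower (31.7%) and 0 higher, beside 6.94% and 11.8% of tested genes. In males 3 members were called lower, beside 1.83%, and 0 higher, beside 1.13%, with 3 lower and 0 higher in limma-voom. At an unadjusted p under 0.05 limma had 20 lower (48.8%) and 0 higher, beside 12.5% and 14.6%. Over both gonadal sexes 4 members were called lower, beside 1.21%, and 0 higher, beside 0.515%, with 7 lower and 0 higher in limma-voom. At an unadjusted p under 0.05 limma had 18 lower (43.9%) and 0 higher, beside 8.25% and 14.5%. The median difference over the members was -0.19 in females, -0.32 in males and -0.22 over both, against 0.06, 0.01 and 0.03 over all tested genes. The median in females was -0.29 without XXF F1 and -0.12 without XYF F7. The 2 members called in females and the 3 called in males shared 0, beside 23 of 101 (22.8%) and of 259 (8.88%) among all tested genes called lower. Shared calls leave out differences short of the thresholds. Oas1g, called in females, lay in XXM (0.0621 to 0.467 RPKM) wholly below XYM (0.474 to 1.18) as well. Oas2, called in males, lay in XXF (2.30 to 4.90) wholly below XYF (5.40 to 10.8) as well. Oas1a, Ifih1 and Oas3 overlapped in the gonadal sex where they were not called. The female count of 2 fell to 1 without each of XXF F1, F2, F4 and F5, XYF F6 and F9, and XXM 7 and 8, and became 4 without XYM 9, 5 without XYF F7 and 6 without XYF F8. The count over all genes, 196, ranged from 56 to 850, with 417, 850 and 374 without these last 3 mice. The male count of 3 fell to 0 without each of XXM 2, XXM 6, XYM 12 and XYM 13 and to 1 without XXM 5 or XYM 16, and became 5 without XXF F1, 6 without XXM 8, 8 without XYM 15 and 12 without XYM 9. The count over all genes, 420, ranged from 51 to 1214, with 495, 622, 1214 and 778 without these last 4 mice. Of the 19 fits with a mouse left out, 18 called 0 members higher in XXM than in XYM mice, and the other called 1. The count of 4 over both gonadal sexes became 7 without XXF F1 and 2 without XYF F9, while that over all genes, 244, became 294 and 148.

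Whether the XX minus XY difference itself differed between females and males was tested by the interaction term, which equals the male minus female difference in XY mice less that in XX mice. By limma 0 of 41 members were called higher and 0 lower, beside 0.0564% and 0.0282% of all tested genes, and limma-voom called 0. At an unadjusted p under 0.05 there were 7 members (17.1%), no larger a share than the 21.0% of all tested genes. Of these, 6 were above 0 (14.6% of members) and 1 below (2.44%), beside 14.4% and 6.62% of all tested genes. With array weights 8 members were called, and 1911 of all genes. The limma count of members was 4 without XXF F3, 3 without XYF F8 and 8 without XYM 9. The count over all genes, 12, ranged from 0 to 1695 when single mice were left out, with 1197, 749 and 1695 without these 3 mice. The median interaction over the members was 0.04, against 0.02 over all tested genes, and ranged from -0.03 without XXF F1 to 0.21 without XYM 9.

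**Figure D2:**
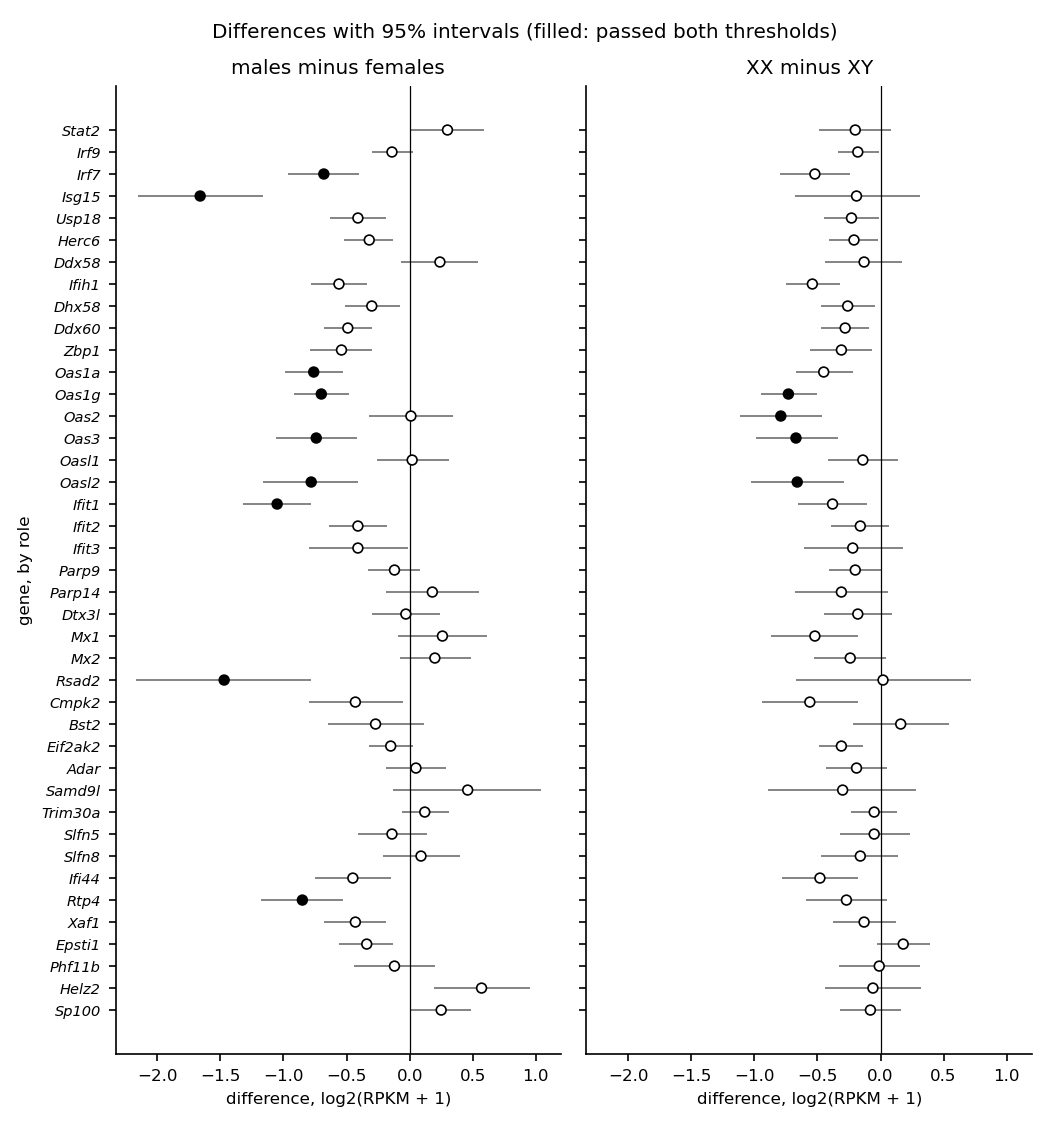
Difference of each member on the log2(RPKM + 1) scale for males minus females over both complements (left) and XX minus XY over both gonadal sexes (right), with 95% confidence intervals from limma over 19 mice and filled circles where adjusted p was below 0.1 and the fold over 1.5. Filled circles number 9 on the left and 4 on the right, all below 0.

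The mean over the 41 members of each gene's centred log2 value placed the groups in the order XXM -0.29 ± 0.13, XYM 0.02 ± 0.23, XXF 0.05 ± 0.21 and XYF 0.27 ± 0.04 (mean ± SD over 5, 5, 5 and 4 mice). XYM and XXF, neighbours in that order, did not differ beyond their spread. XXM mice stood at -0.50, -0.25, -0.27, -0.28 and -0.14, and XYF mice at 0.33, 0.27, 0.25 and 0.23, so that these groups did not overlap. XXF mice stood at 0.36, -0.14, -0.16, 0.11 and 0.07, with XXF F1 above every other mouse and 40 of 41 members above their mean in it. XYM mice stood at -0.39, 0.15, 0.11, 0.12 and 0.13, all below every XYF mouse. XYM 9 lay far below its group, with 38 of 41 members below their mean in it. Apart from XYM 9 the XYM mice lay at 0.11 to 0.15, and apart from XXF F1 the XXF mice at -0.16 to 0.11. The order of XYM and XXF turns without either of these mice.

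**Figure D3:**
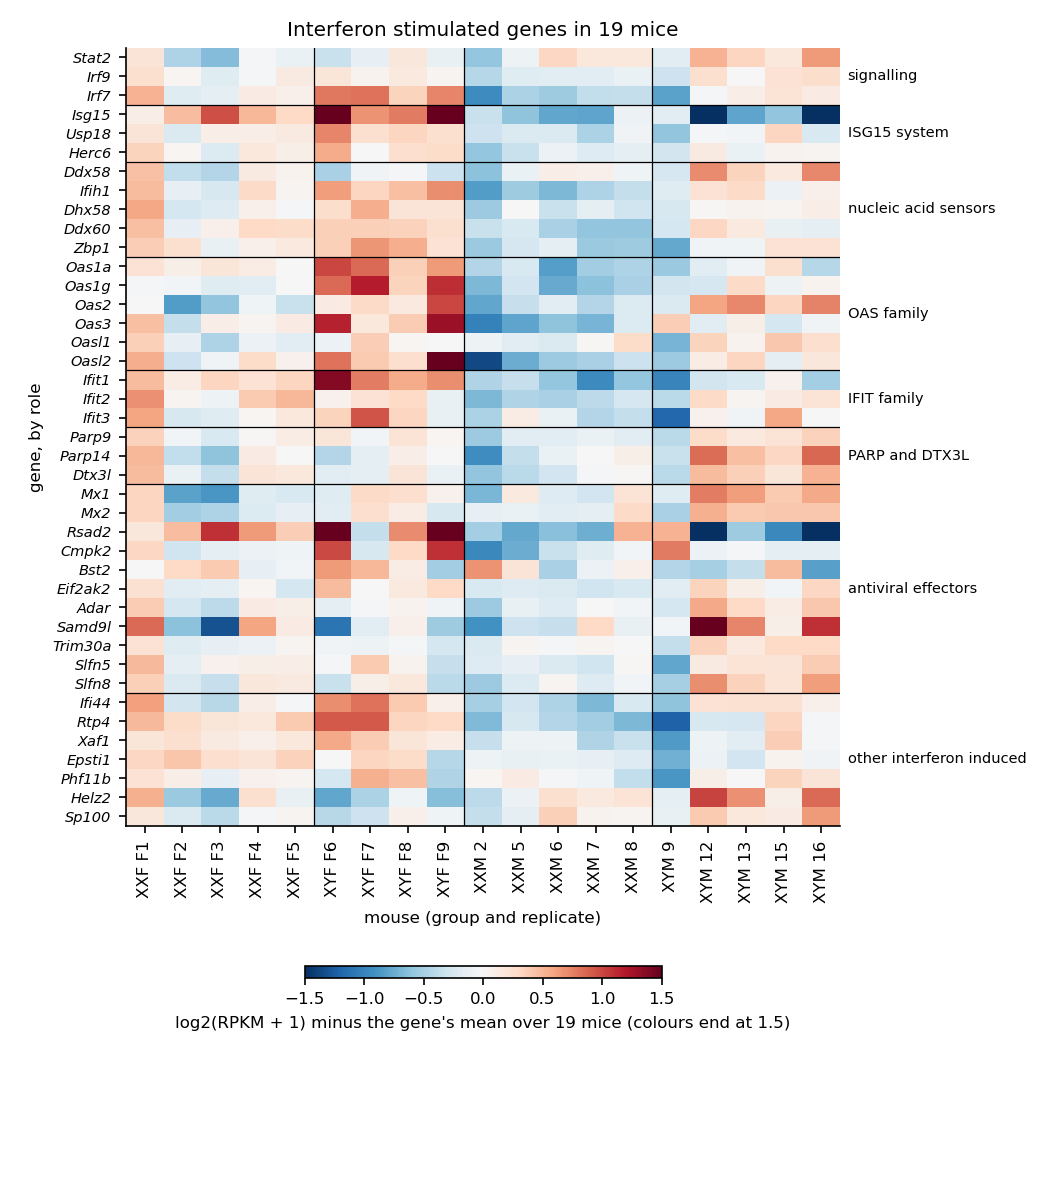
Level of the 41 members (by role) in 19 mice, as log2(RPKM + 1) minus the gene's mean over all mice, in colours that end at 1.5 either way; vertical lines part the groups XXF, XYF, XXM and XYM. XXM mice are mostly blue, XYF mice mostly red, XXF F1 has 40 members above their mean and XYM 9 has 38 below, and Isg15 and Rsad2 vary more than most.

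Transcripts of the ligands themselves were nearly absent. Of 18 type I interferon genes in the table, 12 had no read in any mouse, and the other 6 had 32 reads over all 19 mice. Ifnb1, Ifna4, Ifna13 and Ifnab had 1 read in 1 mouse each, while Ifnk had 19 reads in 9 mice and Ifnz 9 reads in 4 mice. No group comparison of the ligands was made at this depth.

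Mean RPKM was 18.4 for Ifnar1, 29.6 for Ifnar2, 112 for Jak1, 17.3 for Tyk2 and 8.30 for Socs1, a feedback inhibitor, and none of these 5 genes was called in any comparison. The 3 members of the signalling group are Stat2 and Irf9, which are parts of the complex named above, and Irf7, which amplifies interferon transcription. Stat2 ranged from 15.1 to 38.6 RPKM and Irf9 from 35.3 to 57.6, and neither was called in any comparison. Irf7 had 61.4, 37.4, 38.4, 46.5 and 45.1 RPKM in XXF, 74.4, 75.9, 53.98 and 71.1 in XYF, 21.6, 30.4, 29.1, 32.8 and 33.1 in XXM and 23.99, 41.8, 45.5, 49.05 and 46.6 in XYM. All 5 XXM mice were below all XXF mice and all 5 XYM mice below all XYF mice, while XXF and XYF overlapped and XYM 9 was low in its group. Irf7 was lower in males than in females over both complements (-0.68 ± 0.13, limma adjusted p = 0.00157), within XX (-0.61 ± 0.18, limma adjusted p = 0.0511) and within XY (-0.75 ± 0.19, limma adjusted p = 0.0109). The call within XX was lost without each of XXF F1, XXF F4 and XXM 2, with differences of -0.60 to -0.50 and limma adjusted p of 0.103 to 0.139. The call within XY was lost without XYM 9, with a difference of -0.57 and a limma adjusted p of 0.0106. Calls of Irf7 were also lost with array weights (-0.56 over both complements, -0.56 within XX and -0.57 within XY), at an adjusted p under 0.05 (within XX) and without XYF F9 and XYM 9 (-0.58 over both complements and -0.55 within XY). The interaction of Irf7 was -0.14 ± 0.26 (limma adjusted p = 0.780).

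**Figure D4:**
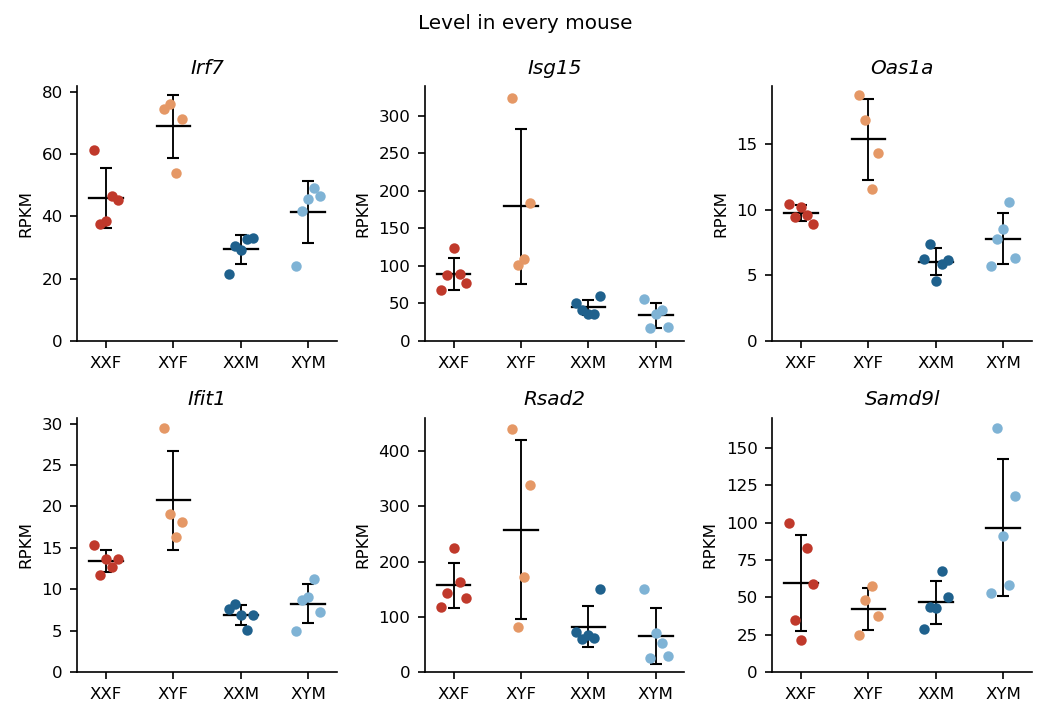
RPKM of Irf7, Isg15, Oas1a, Ifit1, Rsad2 and Samd9l in every mouse by group (points), with the group mean ± SD (5 XXF, 4 XYF, 5 XXM and 5 XYM mice). All 10 males were below all females in Isg15 and Ifit1, whereas the mean of Samd9l was highest in XYM mice.

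The ISG15 system comprises Isg15, a ubiquitin-like modifier, Usp18, the protease that removes it and restrains the receptor, and Herc6, its ligase in mice. Isg15 had 67.7, 87.4, 124, 89.7 and 77.6 RPKM in XXF, 324, 101, 109 and 183 in XYF, 49.9, 41.3, 36.4, 36.1 and 59.3 in XXM and 55.9, 17.4, 35.98, 41.7 and 18.9 in XYM. All 10 males were below all 9 females, XYF F6 stood highest, and XXM and XYM overlapped. Isg15 was lower in males over both complements (-1.66 ± 0.23, limma adjusted p = 0.000132), within XX (-0.98 ± 0.32, limma adjusted p = 0.0818) and within XY (-2.33 ± 0.34, limma adjusted p = 0.000985). The call within XX was lost without each of XXF F2, XXF F3, XXF F4, XXF F5, XXM 5, XXM 6 and XXM 7, with differences of -1.02 to -0.86 and limma adjusted p of 0.114 to 0.18. It was also lost without a filter (adjusted p = 0.123 within XX) and at an adjusted p under 0.05 (within XX). The interaction of Isg15 was -1.35 ± 0.47 (limma unadjusted p = 0.00997, adjusted p = 0.147), so the larger difference within XY did not pass the test. Usp18 and Herc6 differed less between males and females (-0.41 ± 0.10, limma adjusted p = 0.00905 and -0.32 ± 0.09, limma adjusted p = 0.0162), short of the fold threshold, with 6 and 3 of 10 males below every female.

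Among 5 sensors of nucleic acids, Ifih1 encodes MDA5, which binds long double-stranded RNA, and Ddx60 a helicase linked to RIG-I. Ifih1 had 7.94, 4.89, 4.43, 6.88 and 5.62 RPKM in XXF, 8.94, 7.03, 7.82 and 9.45 in XYF, 2.59, 3.45, 3.02, 3.68 and 4.04 in XXM and 4.66, 6.50, 6.88, 5.07 and 5.79 in XYM. Every XXM mouse was below all XYM and all XXF mice, all XYM mice were below all XYF mice, and XXF and XYF overlapped. Ifih1 was lower in XXM than in XYM mice (-0.64 ± 0.14, limma adjusted p = 0.0431) and lower in males within XX (-0.66 ± 0.14, limma adjusted p = 0.00780). The call between XXM and XYM was lost without each of XXM 2, XXM 6, XYM 12 and XYM 13, with differences of -0.61 to -0.57 and limma adjusted p of 0.103 to 0.133. The call within XX was lost without XXF F1, with a difference of -0.56 and a limma adjusted p of 0.024. The call between XXM and XYM was also lost after quantile normalization (-0.56 between XXM and XYM). Ddx60 had 5.74, 3.55, 4.21, 5.06 and 4.96 RPKM in XXF, 5.35, 5.33, 5.28 and 4.84 in XYF, 2.92, 3.23, 2.52, 2.27 and 2.28 in XXM and 3.11, 5.14, 4.46, 3.57 and 3.50 in XYM. Each XXM mouse was below all XXF mice, 4 of 5 were below all XYM mice, and XYF F9 was the lowest of a tight XYF group. Ddx60 was lower in males within XX (-0.64 ± 0.12, limma adjusted p = 0.00378). This call was lost without XXF F1, with a difference of -0.58 and a limma adjusted p of 0.0132. The same call was lost after quantile normalization (-0.56). The interactions of Ifih1 and Ddx60 were 0.20 ± 0.21 and 0.30 ± 0.18 (limma adjusted p = 0.576 and 0.325). Zbp1, a sensor of Z-form nucleic acid, and Dhx58, which encodes LGP2, differed between males and females short of the fold threshold (-0.54 ± 0.12, limma adjusted p = 0.00307 and -0.30 ± 0.10, limma adjusted p = 0.0391), with 6 and 3 of 10 males below every female. Ddx58, which encodes RIG-I, ranged from 13.3 to 34.99 RPKM and was not called in any comparison.

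The active enzymes of the OAS family make 2',5'-oligoadenylates that activate RNase L. Of the 6 genes of the family here, OAS-like genes included, 5 were called in at least 1 comparison, beside 21.0% of all tested genes. Oas1a had 10.4, 9.43, 10.2, 9.62 and 8.91 RPKM in XXF, 18.7, 16.8, 11.6 and 14.3 in XYF, 6.25, 7.39, 4.55, 5.84 and 6.14 in XXM and 5.67, 7.73, 8.51, 10.6 and 6.34 in XYM. All 5 XXF mice were below all XYF mice, and 9 of 10 males were below every female, XYM 15 being the exception. Oas1a was lower in XXF than in XYF mice (-0.59 ± 0.16, limma adjusted p = 0.0801) and lower in males over both complements (-0.76 ± 0.11, limma adjusted p = 0.000130), within XX (-0.62 ± 0.15, limma adjusted p = 0.0158) and within XY (-0.90 ± 0.16, limma adjusted p = 0.00212). The call between XXF and XYF was lost without each of XXF F1, XXF F2, XXF F4, XXF F5, XYF F6, XYF F7, XYF F9, XXM 7 and XXM 8, with differences of -0.62 to -0.49 and limma adjusted p of 0.0757 to 0.234. The call within XX was lost without XXM 6, with a difference of -0.54 and a limma adjusted p of 0.0541. Calls of Oas1a were also absent without a filter (adjusted p = 0.101 between XXF and XYF), with the 2 compared groups alone (adjusted p = 0.133 between XXF and XYF), with array weights (-0.58 between XXF and XYF), at an adjusted p under 0.05 (between XXF and XYF), after quantile normalization (-0.57 within XX) and without XYF F9 and XYM 9 (adjusted p = 0.11 between XXF and XYF). Oas1g, a paralog of Oas1a with which it may share reads, had 0.751, 0.747, 0.584, 0.606 and 0.796 RPKM in XXF, 2.23, 3.04, 1.26 and 2.87 in XYF, 0.124, 0.467, 0.0621, 0.172 and 0.277 in XXM and 0.474, 0.505, 1.18, 0.698 and 0.859 in XYM. XXF was wholly below XYF, XXM below XYM, XXM below XXF and XYM below XYF. Oas1g was lower in XXF than in XYF mice (-0.95 ± 0.15, limma adjusted p = 0.00514), in XX over both gonadal sexes (-0.73 ± 0.11, limma adjusted p = 0.000897), in males over both complements (-0.70 ± 0.11, limma adjusted p = 0.000224) and in males within XY (-0.92 ± 0.15, limma adjusted p = 0.00190). With limma-voom, which adds no 1 to the RPKM, these differences were -1.66, -1.76, -1.73 and -1.63, and with a pseudocount of 0.1 they were -1.56, -1.51, -1.49 and -1.53, so their size depends on the pseudocount. One of these calls was lost with array weights (-0.57 over both complements). The interactions of Oas1a and Oas1g were -0.29 ± 0.22 and -0.44 ± 0.21 (limma adjusted p = 0.435 and 0.243).

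Oas2 had 4.90, 2.30, 2.91, 4.61 and 3.67 RPKM in XXF, 5.40, 6.19, 5.52 and 10.8 in XYF, 2.43, 3.63, 4.29, 3.33 and 4.10 in XXM and 4.07, 7.88, 8.70, 6.34 and 8.87 in XYM. All 5 XXF mice were below all XYF mice and 3 of 5 XXM mice below all XYM mice, while males and females overlapped throughout. Oas2 was lower in XXM than in XYM mice (-0.82 ± 0.21, limma adjusted p = 0.0670) and in XX over both gonadal sexes (-0.79 ± 0.16, limma adjusted p = 0.0101), and the interaction was 0.06 ± 0.31 (limma adjusted p = 0.923). The call between XXM and XYM was lost without each of XXM 2, XXM 5, XXM 6, XYM 12, XYM 13 and XYM 16, with differences of -0.88 to -0.72 and limma adjusted p of 0.11 to 0.183. That call was also lost with the 2 compared groups alone (adjusted p = 0.101 between XXM and XYM) and at an adjusted p under 0.05 (between XXM and XYM). Oas3 had 18.5, 10.1, 14.2, 13.6 and 14.5 RPKM in XXF, 30.5, 14.8, 17.5 and 33.8 in XYF, 6.02, 7.21, 8.34, 7.78 and 11.3 in XXM and 17.4, 11.7, 14.1, 10.8 and 12.7 in XYM. The groups overlapped in each comparison, with XYF F6 and F9 highest and 4 of 5 XXM mice below all XYM mice and below all XXF mice. Oas3 was lower in XXM than in XYM mice (-0.66 ± 0.21, limma adjusted p = 0.0923), in XX over both gonadal sexes (-0.67 ± 0.15, limma adjusted p = 0.0269), and in males over both complements (-0.74 ± 0.15, limma adjusted p = 0.00251), within XX (-0.73 ± 0.21, limma adjusted p = 0.0456) and within XY (-0.75 ± 0.22, limma adjusted p = 0.0216). The call between XXM and XYM was lost without each of XXF F4, XXF F5, XXM 2, XXM 5, XXM 6, XXM 7, XYM 9, XYM 12, XYM 13 and XYM 16, with differences of -0.70 to -0.56 and limma adjusted p of 0.103 to 0.232. The call over both gonadal sexes was lost without XYF F9, with a difference of -0.57 and a limma adjusted p of 0.0687. The call within XX was lost without XXF F1, with a difference of -0.64 and a limma adjusted p of 0.121. The call within XY was lost without XYF F9, with a difference of -0.57 and a limma adjusted p of 0.0655. Oas3 was also not called without a filter (adjusted p = 0.123 between XXM and XYM), with the 2 compared groups alone (adjusted p = 0.101 between XXM and XYM), with array weights (-0.58 over both gonadal sexes), at an adjusted p under 0.05 (between XXM and XYM), with limma-voom (adjusted p = 0.102 between XXM and XYM) and without XYF F9 and XYM 9 (-0.56 between XXM and XYM and -0.53 over both gonadal sexes).

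Oasl2, an OAS-like protein, had 19.3, 10.2, 12.4, 15.8 and 13.5 RPKM in XXF, 23.5, 17.3, 15.6 and 39.6 in XYF, 4.42, 7.26, 8.53, 8.95 and 10.1 in XXM and 8.50, 13.97, 16.3, 11.6 and 14.6 in XYM. XXM lay wholly below XXF, XYF F9 was highest, and 6 of 10 males were below every female. Oasl2 was lower in XX over both gonadal sexes (-0.66 ± 0.18, limma adjusted p = 0.0526), and in males over both complements (-0.78 ± 0.18, limma adjusted p = 0.00416), within XX (-0.80 ± 0.24, limma adjusted p = 0.0599) and within XY (-0.77 ± 0.26, limma adjusted p = 0.0331). The call over both gonadal sexes was lost without each of XYF F9, XXM 2 and XYM 13, with differences of -0.62 to -0.53 and limma adjusted p of 0.0906 to 0.116. The call within XX was lost without each of XXF F1, XXF F4, XXM 2 and XXM 5, with differences of -0.78 to -0.63 and limma adjusted p of 0.115 to 0.153. The call within XY was lost without XYF F9, with a difference of -0.51 and a limma adjusted p of 0.109. Oasl2 also lost calls with array weights (-0.56 over both complements and -0.41 at adjusted p = 0.154 within XY), at an adjusted p under 0.05 (over both gonadal sexes and within XX) and without XYF F9 and XYM 9 (-0.38 at adjusted p = 0.199 within XY). The interactions of Oas3 and Oasl2 were -0.01 ± 0.31 and 0.02 ± 0.35 (limma adjusted p = 0.983 and 0.979). Oasl1, which restrains Irf7 translation, ranged from 6.87 to 15.8 RPKM and was not called in any comparison.

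The IFIT family binds foreign RNA and restrains translation. Ifit1 had 15.3, 11.7, 13.7, 12.7 and 13.7 RPKM in XXF, 29.5, 19.1, 16.3 and 18.1 in XYF, 7.63, 8.26, 6.90, 5.07 and 6.89 in XXM and 4.95, 8.69, 9.06, 11.3 and 7.30 in XYM. All 10 males were below all 9 females, and all XXF mice were below all XYF mice. Ifit1 was lower in males over both complements (-1.05 ± 0.13, limma adjusted p = 3.55e-05), within XX (-0.87 ± 0.18, limma adjusted p = 0.00542) and within XY (-1.24 ± 0.19, limma adjusted p = 0.00113), and none of these calls was lost without any 1 of the 19 mice. Its XX minus XY difference in females did not pass (-0.56 ± 0.19, limma adjusted p = 0.150, all 5 XXF mice lower). Ifit2 had 16.8, 10.4, 9.53, 13.5 and 14.6 RPKM in XXF, 10.6, 11.9, 12.6 and 9.30 in XYF, 5.95, 7.12, 6.91, 7.43 and 8.31 in XXM and 7.40, 12.5, 10.4, 11.1 and 11.8 in XYM. All 5 XXM mice were below all XXF mice, while XYM and XYF overlapped. Ifit2 was lower in males within XX (-0.76 ± 0.15, limma adjusted p = 0.00434), against -0.07 ± 0.16 within XY, and the interaction was 0.69 ± 0.22 (limma unadjusted p = 0.00533, adjusted p = 0.135). Ifit3, whose reads may be shared with its paralog Ifit3b, ranged from 5.04 to 25.3 RPKM and was not called in any comparison. The interaction of Ifit1 was -0.37 ± 0.26 (limma adjusted p = 0.399).

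Parp9, Parp14 and Dtx3l, which act together in ADP-ribosylation and ubiquitination, varied together, with a median r of 0.90 over their deviations from group means. Their RPKM ranged from 18.8 to 35.7, 9.81 to 36.3 and 14.3 to 32.2, and none was called in any comparison. Their differences between XXM and XYM mice were -0.35 ± 0.13, -0.68 ± 0.24 and -0.49 ± 0.18 (limma adjusted p = 0.127, 0.110 and 0.115), with 1, 2 and 1 of 5 XXM mice below every XYM mouse.

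Of 11 antiviral effectors, Rsad2 and Samd9l (18.2%) were called in at least 1 comparison, no larger a share than the 21.0% of all tested genes. Rsad2 encodes viperin, which makes a chain-terminating nucleotide, and had 118, 144, 225, 163 and 135 RPKM in XXF, 439, 81.5, 172 and 339 in XYF, 73.2, 61.1, 67.5, 62.4 and 149.9 in XXM and 150.4, 26.2, 71.6, 52.8 and 29.3 in XYM. XXM 8 stood above the rest of its group, and 8 of 10 males were below every female. Rsad2 was lower in males over both complements (-1.47 ± 0.33, limma adjusted p = 0.00408) and within XY (-1.98 ± 0.48, limma adjusted p = 0.00836), and neither call was lost without any 1 of the 19 mice. The interaction of Rsad2 was -1.01 ± 0.66 (limma adjusted p = 0.369). Samd9l, which restricts translation, had 99.5, 35.2, 21.5, 82.9 and 59.3 RPKM in XXF, 25.1, 48.5, 57.8 and 37.4 in XYF, 28.7, 43.9, 42.9, 67.4 and 50.4 in XXM and 53.1, 163, 91.1, 58.04 and 118 in XYM. In XYM all but XYM 9 were above every XYF mouse, and 4 of 5 XXM mice were below every XYM mouse. Samd9l was higher in males within XY (1.11 ± 0.41, limma adjusted p = 0.0468), and the interaction was 1.32 ± 0.56 (limma adjusted p = 0.193). The call within XY was lost without each of XYF F6, XYM 12 and XYM 16, with differences of 0.89 to 1.01 and limma adjusted p of 0.105 to 0.162.

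Bst2 encodes tetherin, which holds budding virions at the cell surface, and had 76.8, 94.4, 101, 69.99 and 74.6 RPKM in XXF, 120.0, 109, 82.7 and 53.1 in XYF, 123, 87.6, 54.2, 72.3 and 80.6 in XXM and 56.3, 53.9, 59.8, 107 and 43.1 in XYM. XXM 2 was highest and XYM 16 lowest, all groups overlapped, and no comparison was called. Mx1 and Mx2 ranged from 2.69 to 10.5 and 1.34 to 3.87 RPKM, and the annotation lists both as transcribed pseudogenes. The other effectors ranged from 7.17 to 33.3 RPKM for Cmpk2, a nucleotide kinase beside Rsad2, 10.9 to 19.3 for Eif2ak2, which encodes PKR, 17.8 to 39.7 for Adar, an RNA editor, 43.4 to 71.7 for Trim30a, 16.9 to 42.03 for Slfn5 and 19.5 to 47.5 for Slfn8. None of these was called in any comparison.

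Of 7 other interferon induced genes, Rtp4 and Helz2 (28.6%) were called in at least 1 comparison, against 21.0% of all tested genes. Rtp4, a receptor chaperone that damps the interferon response, had 34.9, 30.1, 28.1, 27.5 and 32.7 RPKM in XXF, 47.5, 47.4, 30.96 and 30.6 in XYF, 15.2, 20.6, 17.9, 16.8 and 15.1 in XXM and 10.01, 20.6, 20.5, 31.1 and 24.1 in XYM. All 5 XXM mice were below all XXF mice, and 9 of 10 males were below every female, XYM 15 being the exception. Rtp4 was lower in males over both complements (-0.85 ± 0.15, limma adjusted p = 0.000895), within XX (-0.81 ± 0.21, limma adjusted p = 0.0263) and within XY (-0.90 ± 0.22, limma adjusted p = 0.00904), and none of these calls was lost without any 1 of the 19 mice. Helz2, a helicase and transcriptional coactivator, had 37.98, 17.3, 14.99, 30.8 and 24.03 RPKM in XXF, 14.7, 18.5, 24.9 and 16.4 in XYF, 19.5, 24.4, 30.9, 28.8 and 30.2 in XXM and 23.5, 53.3, 42.5, 27.8 and 47.7 in XYM. Of the XYM mice, 4 of 5 were above every XYF mouse and XYM 12 was highest. Helz2 was higher in males within XY (0.99 ± 0.26, limma adjusted p = 0.0134), and the interaction was 0.83 ± 0.36 (limma adjusted p = 0.204). The interaction of Rtp4 was -0.09 ± 0.31 (limma adjusted p = 0.876).

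Epsti1, a gene of epithelial and immune cells, had 94.5, 102, 90.4, 87.3 and 96.8 RPKM in XXF, 76.3, 94.9, 91.9 and 56.4 in XYF, 72.2, 70.3, 70.9, 69.5 and 66.3 in XXM and 45.7, 71.5, 61.9, 79.1 and 73.2 in XYM. All 5 XXM mice were below all XXF mice, and XYF F9 and XYM 9 were lowest in their groups. The difference within XX was short of the fold threshold (-0.43 ± 0.14, limma adjusted p = 0.0809). Sp100, the member with the highest mean RPKM, had 195, 149, 130.2, 170.0 and 178 RPKM in XXF, 129.7, 140.0, 182 and 165 in XYF, 135, 158, 223, 180.0 and 178 in XXM and 159.9, 227, 194, 188 and 271 in XYM. XYM 16 was highest, 4 of 5 XYM mice were above every XYF mouse, and no comparison was called. Xaf1, a proapoptotic gene, Ifi44 and Phf11b ranged from 5.98 to 17.7, 0.590 to 3.44 and 12.3 to 34.2 RPKM, and none was called in any comparison.

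As deviations from group means on the log2 scale, the members mostly varied together, with a median Pearson r of 0.48 over 820 pairs, against 0.02 over all pairs of tested genes, a range of -0.85 to 0.96 and 156 pairs below 0. All values of a mouse share 1 library. Isg15 and Rsad2 followed each other (r = 0.91) and ran against most others, with a median r to the other members of -0.48 and -0.46. Oas3 and Cmpk2 also followed each other (r = 0.92). The within-group SD on the log2 scale had a median of 0.30 over the members and 0.23 over all tested genes, and was highest for Rsad2 (0.78), Samd9l (0.66) and Isg15 (0.55).

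The members were set beside summed RPKM of 10 lists of marker genes, for cell types and for proliferation, and whether cell composition accounts for any difference was not tested. None of the marker genes was at 0 in all mice. Summed erythroid markers (7 genes, most abundant Hbb-bs, mean 10148 RPKM) averaged 20071 in XXF, 30074 in XYF, 10299 in XXM and 6079.7 in XYM, and limma called 7 of 7 lower in males over both complements. It called 0 of 7 within XX (median difference -0.87) and 7 of 7 within XY (-2.45). The erythroid sum was 14641 in XYM 9 and 1587 to 6839 in the other XYM mice. Summed T cell markers (most abundant Cd3g, 168) averaged 1102, 885, 367 and 457 in the same order, with 7 of 8 called lower in males (8 within XX and 6 within XY), and B cell markers (Cd79b, 865) averaged 2814, 2059, 4005 and 3340.3, with 6 of 8 higher (1 within XX and 7 within XY). Neutrophil markers (S100a9, 4978) averaged 4301, 20696, 5109 and 13365, with XYF F9 at 47780.2 and XYM 9 at 49167 and 0 of 8 called between males and females. The other XYF mice stood at 7305 to 15724 and the other XYM mice at 2726 to 8140.1, so both XY means rest largely on XYF F9 and XYM 9. Every XYF mouse was nonetheless above every XXF mouse (3613 to 4922), whereas XYM mice other than XYM 9 overlapped XXM mice (3598 to 6239). NK cell markers (Gzma, 201) averaged 535, 223, 389.9 and 212, with 4 of 6 called higher in XX over both gonadal sexes, and proliferation markers (Top2a, 41.95) averaged 115, 244, 86.9 and 132, with 4 of 6 called lower in males (0 within XX and 3 within XY). Plasma cell (Jchain, 957), monocyte and macrophage (Lyz2, 1137), plasmacytoid dendritic cell (Ly6d, 947) and conventional dendritic cell markers (Itgax, 18.1) had 1, 0, 3 and 3 genes called higher and 0, 2, 1 and 0 called lower in males. For these lists the group means were 1094, 1628, 1252 and 1378 for plasma cells, 1391, 1929, 1197 and 1445 for monocytes and macrophages, 1142, 789.6, 1713 and 1034 for plasmacytoid and 31.1, 35.4, 53.97 and 54.7 for conventional dendritic cells. Ly6d, with a mean of 947 RPKM over all mice, made up most of the plasmacytoid sum, which therefore mainly follows this gene. In XX minus XY over both gonadal sexes all 8 neutrophil markers were below 0 (median -1.17) and 2 were called lower, while 2 plasmacytoid dendritic cell markers and 1 B cell marker were called higher. In females the 8 neutrophil markers were again below 0 (median -2.01) with 0 called. There 4 NK cell markers and 1 B cell marker were higher and 1 plasma cell marker was lower. In males 3 T cell markers were lower, and 3 plasmacytoid dendritic cell, 2 erythroid, 2 NK cell and 1 B cell markers were higher. These markers moved with the groups, so cell composition and transcription per cell cannot be told apart.

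Of 410 relations computed between 41 members and 10 lists, as deviations from group means over 19 mice, Isg15 had r = 0.92 and rho = 0.96 with the erythroid markers, and r = 0.88 without XYM 12 and XYM 16, the mice farthest from the median marker value. Group means were taken over the remaining mice here and below. Rsad2 had r = 0.88, rho = 0.93 with the erythroid cell markers and r = 0.85 without XYM 12 and XYM 16, and Slfn8 r = -0.83, rho = -0.78 with the erythroid cell markers and r = -0.77 without XYM 12 and XYM 16. Phf11b had r = 0.95, rho = 0.91 with the B cell markers and r = 0.95 without XYF F6 and XYF F9, and Cmpk2 r = 0.91, rho = 0.88 with the proliferation markers and r = 0.87 without XYF F6 and XYF F9. Epsti1 had r = -0.86, rho = -0.61 with the neutrophil markers and r = -0.37 without XYF F9 and XYM 9. Without these 2 mice its r also went from 0.88 to 0.46 with NK cell and from -0.83 to -0.29 with monocyte and macrophage markers. With B cell, T cell and plasmacytoid dendritic cell markers Epsti1 had r = 0.91, 0.89 and 0.87 (rho = 0.83, 0.78 and 0.86). These became 0.90, 0.86 and 0.83 without the 2 farthest mice of each list. Counts of members with r above 0.7 and below -0.7 were 2 and 10 for erythroid, 6 and 4 for B cell, 4 and 2 for T cell, 6 and 1 for NK cell, 0 and 9 for neutrophil and 0 and 6 for plasma cell markers. They were 3 and 3 for proliferation, 2 and 2 for plasmacytoid dendritic cell, 0 and 1 for monocyte and macrophage, and 0 and 0 for conventional dendritic cell markers. For NK cell and neutrophil markers both counts were 0 and 0 without XYF F9 and XYM 9. Without the 2 farthest mice of each list the counts were 2 and 5 for erythroid, 12 and 1 for B cell, 4 and 1 for T cell and 1 and 1 for plasma cell markers. They were 3 and 5 for proliferation, 3 and 2 for plasmacytoid dendritic cell, 1 and 0 for monocyte and macrophage, and 7 and 0 for conventional dendritic cell markers. These counts therefore depend on which mice are included. Isg15 had r = 0.92 and rho = 0.95 with Ube2l6, the ISG15 conjugating enzyme, and r = -0.08 and rho = -0.03 with Uba7, the activating enzyme. The relation to Ube2l6 was not particular to Isg15, since Rsad2 had r = 0.96 and rho = 0.95 with it. With the erythroid marker Hbb-bs, r was 0.88 and rho 0.94 for Isg15, and 0.82 and 0.89 for Rsad2.

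**Figure D5:**
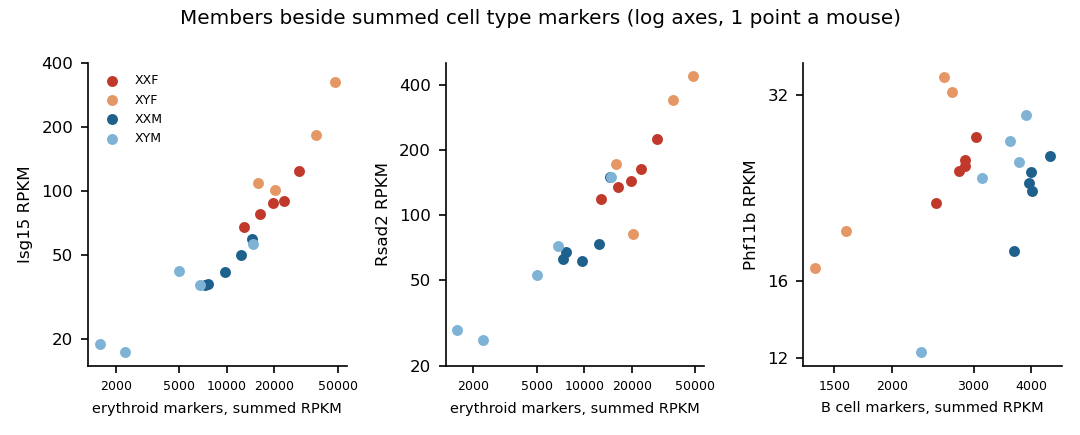
RPKM of Isg15 and Rsad2 against summed erythroid markers and of Phf11b against summed B cell markers in 19 mice, coloured by group, on log axes. Over deviations from group means, r was 0.92 for Isg15 and 0.88 for Rsad2 with erythroid markers and 0.95 for Phf11b with B cell markers.

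Further lists were read beside the members. Of all tested genes, 5.36% were called lower and 1.96% higher in males over both complements. These shares were 2.91% and 1.30% within XX and 8.13% and 7.63% within XY. For XX minus XY they were 0.712% and 0.670% in females, 1.83% and 1.13% in males and 1.21% and 0.515% over both gonadal sexes. Of 44 further interferon stimulated genes, limma called 9 lower and 0 higher in males over both complements, namely Ifi27, Ifi27l2a, Ifi204, Ifit1bl1, Isg20, Ifitm3, Parp12, Slfn1 (-1.19 ± 0.07, limma adjusted p = 8.55e-09) and Ube2l6 (-1.22 ± 0.26, limma adjusted p = 0.00317), and 5 lower within XX, where Lgals3bp joined Ifi27, Ifit1bl1, Parp12 and Slfn1. Within XY 11 were lower, the same 9 with Ifitm1 and Ifitm2, and 1, Ifi203, was higher. In XX minus XY, Ifit1bl1, Ly6c2, Lgals3bp and Slfn9 were lower in males and Ly6c2 and Slfn4 over both gonadal sexes, and limma called 0 in females. Of 16 tested GBP and IRG GTPases, which respond to interferon gamma as well, 7 were lower in males over both complements (Gbp2, Gbp6, Gbp8, Igtp, Iigp1, Tgtp1 and Tgtp2), 9 within XX, where Irgm2 and Ifi47 joined these, and 5 within XY, where Gbp6 and Tgtp2 were not called, with Gbp9 higher within XY (0.86 ± 0.29, limma adjusted p = 0.0344). In XX minus XY, 4 of these GTPases (Gbp6, Iigp1, Tgtp1 and Tgtp2) were lower in males and 1, Iigp1, over both gonadal sexes (-0.76 ± 0.18, limma adjusted p = 0.0299). Of 19 genes that act in sensing before interferon, Tlr7 was lower in XX over both gonadal sexes (-1.27 ± 0.18, limma adjusted p = 0.000680), as was Tlr8 (-1.36 ± 0.25, limma adjusted p = 0.00503). Both of these genes are X-linked. Irf5 (0.60 ± 0.08, limma adjusted p = 6.35e-05) and Tlr9 (0.76 ± 0.30, limma adjusted p = 0.0669) were higher in males and Ikbke lower (-0.76 ± 0.09, limma adjusted p = 3.74e-05). Tlr7, Traf3 and Irf8 were higher in males within XY (0.69 ± 0.26, limma adjusted p = 0.0537, 0.78 ± 0.16, limma adjusted p = 0.00424 and 0.73 ± 0.22, limma adjusted p = 0.0226). Of 11 genes of the interferon gamma axis, Ciita was higher in males (0.63 ± 0.20, limma adjusted p = 0.0254) and Cxcl9 lower (-0.89 ± 0.15, limma adjusted p = 0.000454), and Il18r1 was higher within XY (0.69 ± 0.17, limma adjusted p = 0.00989).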

How the data were processed

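According to the authors' processing notes, Subread placed the reads on mm10, featureCounts counted them by gene, and log2(RPKM + 1) values were deposited; versions, annotation, strand setting and the handling of reads that match several places were not given in the sources used here, so reads of close paralogs may be shared. The library kit is given as KAPA stranded in the methods and as NEBNext Ultra in the sample labels. Members were matched by Entrez gene ID. Genes were tested where 4 or more mice reached an RPKM of 0.5, with limma 3.58.1 in R 4.3.3 on the deposited log2 values, fitting 1 mean per group (4 groups) and a shared spread. Genes were called at an adjusted p under 0.1 (Benjamini-Hochberg over 14186 genes) and a fold over 1.5. The deposited steps gave whole reads within 0.001 for all 21317 genes with a read, and their sums were 100.0% of the depth; limma-voom was run on these reads. Values in every mouse are given for members called in any comparison and for the 6 of highest mean RPKM; of other lists apart from markers, called genes and genes needed to describe the pathway are named, and 1 called gene is not reported here. Lists covered ligands, receptor and signalling, sensing, further interferon stimulated genes, GBP and IRG GTPases, the interferon gamma axis and 10 lists of cell type and proliferation markers. The members and lists were chosen with earlier results of these data known. Python 3.11.15, pandas 2.3.3, numpy 2.4.6 and matplotlib 3.10.9 made the summaries and plots.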

Additional observations from a re-analysis of the deposited data

Results flagged for a closer look

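Of 76 groups of values examined, 4 held a mouse far from the others of its group, and chance sets apart a mouse in about 1 in 20 groups. The mean centred log2 value over the 41 members was low in XYM 9, at -0.39. Irf7 was low in the same mouse, at 23.99 RPKM. Ddx60 was low in XYF F9, at 4.84 RPKM. Rsad2 was high in XXM 8, at 149.9 RPKM.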

How the results depend on the processing

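Of 39 called member differences, 0 reversed under any setting, and the number that kept the call was 31 with array weights, 32 at an adjusted p under 0.05, 36 without a filter, 36 after quantile normalization, 38 with limma-voom and 23 of 26 with the 2 compared groups alone. Counts over all genes follow in brackets. In XX minus XY the 2 members called in females (196) became 1 without a filter (143), 4 after median ratio rescaling (179), 1 with the 2 compared groups alone (88), 1 with array weights (260) and 1 at an adjusted p under 0.05 (103), and 1 to 6 (56 to 850) when single mice were left out. The 3 called in males (420) became 1 with the 2 compared groups alone (121), 9 with array weights (1027), 1 at an adjusted p under 0.05 (85) and 6 without a fold threshold (1115), and 0 to 12 (51 to 1214) with each mouse left out. The 4 called over both gonadal sexes (244) became 8 with a pseudocount of 0.1 (413), 12 without a fold threshold (983) and 7 with limma-voom (391), and 2 to 7 (148 to 518) with each mouse left out. For males minus females, the 9 called over both complements (1039) became 21 without a fold threshold (5468 of 14186) and 9 to 10 with each mouse left out (837 to 1253). The 10 within XX (598) ranged from 5 to 10 with each mouse left out (499 to 627). The 11 within XY (2237) became 20 without a fold threshold (5661 of 14186) and 10 to 17 with each mouse left out (1395 to 2958). The 0 called for the interaction (12) became 8 with array weights (1911) and 0 to 8 with each mouse left out (0 to 1695); by limma 7 had an unadjusted p under 0.05 (2979), and limma-voom called 0 (4). Leaving out XYF F9 and XYM 9 together, the mice highest in neutrophil markers, was chosen after seeing the data; it gave 1 member in females (127), 12 in males (876) and 3 for the interaction (782), and 33 of 39 kept the call. Counts of members that follow marker lists were also taken without the 2 mice farthest from the median marker sum, an alternative chosen after seeing the data, and for NK cell and neutrophil markers none remained. The cause of these changes was not tested.

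The median difference over the members kept its sign in every setting except for the interaction. Over the settings it ranged from -0.26 to -0.19 in females, -0.46 to -0.32 in males, -0.31 to -0.22 over both gonadal sexes, -0.32 to -0.27 for males minus females, -0.34 to -0.29 within XX, -0.32 to -0.16 within XY and -0.02 to 0.13 for the interaction. With each mouse left out it ranged from -0.29 to -0.12 in females, -0.46 to -0.28 in males, -0.29 to -0.19 over both gonadal sexes, -0.33 to -0.26 for males minus females, -0.39 to -0.20 within XX, -0.31 to -0.14 within XY and -0.03 to 0.21 for the interaction. The alternatives were run on the members and on counts over all genes, not on single genes of the other lists. With 4 or 5 mice a group, most counts for XX minus XY rest on which mice are included, and for Oas1g, with as few as 2 reads in a mouse, the pseudocount sets the size of the difference, which in XX minus XY over both gonadal sexes was -0.73 in the main fit, -1.51 with a pseudocount of 0.1 and -1.76 with limma-voom.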
